A study of Tamarix ramosissima and Tamarix chinensis with 11 samples.

Results

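Water deficit was compared with well-watered control in leaves of *T. ramosissima*, using the 3 water deficit and the 3 control libraries of this species and the genes with more than 1 CPM (a count scaled to the total of its library) in at least 2 of these 6 libraries. This rule kept 29025 of the 117867 assembled genes (24.6%), and 6 of the 11 libraries of the study, which treated *T. chinensis* in the same way. The seedlings were 14 weeks old when they entered growth chambers at 25 °C. Controls stood in shallow water throughout, whereas water was withheld from the other plants until their leaves wilted, at day 17. All leaf tissue of a plant was collected, 1 plant per library, from seedlings raised from seed collected at 1 site in the north of the United States. The plants of a group are thus separate individuals from 1 seed source, sampled at 1 time point. The p-values therefore set a difference against the spread between such plants.

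*T. ramosissima* is a saltcedar, a deep-rooted, salt-secreting shrub of river banks and saline soils that is invasive in North America. When soil water runs out, the hormone abscisic acid rises in leaves and closes the stomata, photosynthesis and growth slow, and genes for protective proteins, compatible solutes and detoxifying enzymes are typically induced while genes of growth and photosynthesis are typically repressed. Stomatal closure typically precedes wilting, which is the loss of turgor in leaf cells. The leaves here were sampled at the wilting point, and how far their response had gone by then was not tested.

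The genes in the deposited tables are groups of contigs assembled from the reads of both species, and no identifier is paired with a gene name. Pathways and cell type markers could therefore not be examined, and the labelled tissue was not checked against leaf markers. Genes are described below by level, size of change, plant, assembly component and response in *T. chinensis*. Contigs of near-identical gene copies may share reads, and in leaf tissue fewer cells of a type and less RNA per cell cannot be told apart.

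Total counts were 14011028, 11794155 and 13207170 fragments in control plants 1, 2 and 3, and 12480758, 11221126 and 11921162 in water deficit plants 1, 2 and 3. At these depths 1 CPM corresponded to 11.2 to 14.0 fragments. The genes kept by the rule held 98.9% to 99.3% of the counts of a library. Of these genes, 20977 passed 1 CPM in all 6 libraries, 5965 in 3 to 5 libraries and 2083 in exactly 2, and another 3722 genes passed in 1 library only and were left out. No pair of libraries of a group agreed within sampling noise, since the median chi-square of their counts over genes lay between 2.35 and 7.36, where counting error alone gives 0.455.

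Differentially expressed genes between wilted and well-watered leaves were a small share of the genes tested, and more of them fell than rose. At an FDR of at most 0.05 and a change of at least 2-fold (edgeR quasi-likelihood test, Benjamini-Hochberg adjustment over all genes tested), 1114 genes were differentially expressed (DEG), which was 3.84% of those tested. Of these, 448 were up-regulated (1.54%) and 666 were down-regulated (2.29%), so that 59.8% of the DEG were lower under water deficit. In all 1114 DEG the 3 water deficit plants lay on 1 side of the 3 control plants. The test that called these genes favours such a separation, so it is not a result about them. Such a separation was seen more widely, in 3954 genes that were higher in every water deficit plant (13.6%) and in 4258 that were lower (14.7%), with a median log2 fold change of 0.82 and −1.05. The median log2 fold change of all genes tested was 0.02, and 48.7% of them had a fold change below 0 on the log2 scale.

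The number of DEG depended on the threshold and on single plants. At the stricter FDR of 0.005 that the study used, the same test called 0 genes (0.0%), although 6264 genes had an unadjusted p under 0.05 (3027 higher and 3237 lower). The smallest adjusted p of this test was 0.0117, shared by 43 genes, and the threshold of 0.05 was chosen with this known. By edgeR's exact test 1231 genes passed 0.005 (4.24%), and DESeq2 gave 1530. Of the 1231 genes, 886 were also among the 1114 DEG, which was 72.0% of the exact test list and 79.5% of the quasi-likelihood list, and 35 of the remaining 345 had overlapping groups. Leaving out control plant 1, 2 or 3 left 108, 250 and 0 DEG at 0.05, and leaving out water deficit plant 1, 2 or 3 left 1054, 737 and 143. Each of these fits also had only 2 plants in 1 group, and how much of the fall comes from this was not tested. Without control plant 3 the smallest adjusted p was 0.0544 and 4362 genes had an unadjusted p under 0.05. Without water deficit plant 3 the larger share of DEG was up-regulated (77 genes against 66).

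**Figure D1:**
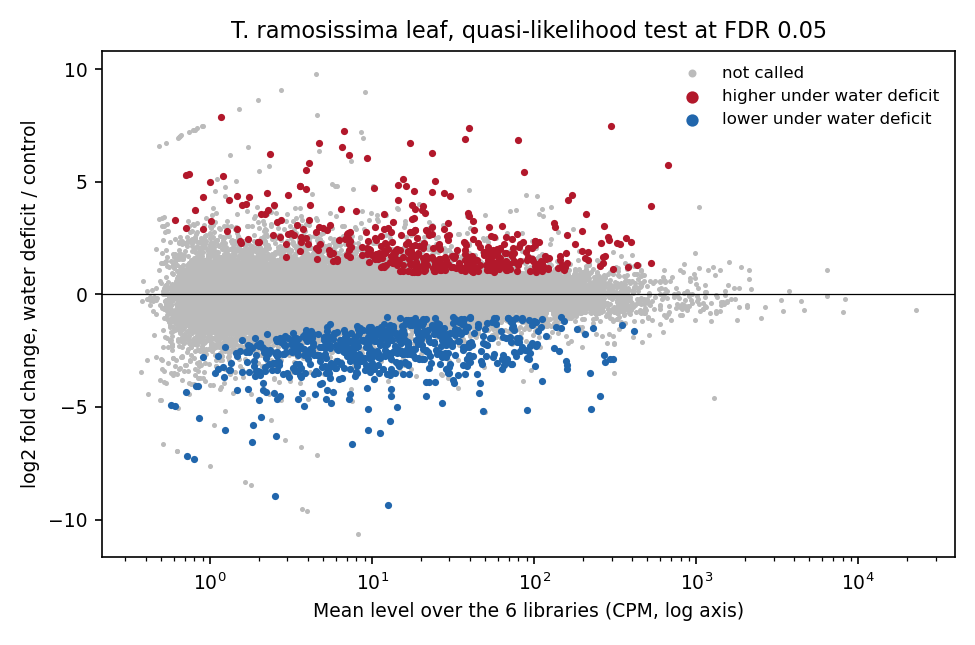
Each point is 1 of the 29025 genes tested, with its mean level over the 6 libraries in CPM on a log axis and its log2 fold change, water deficit over control. The 448 DEG that rose (red) and the 666 that fell (blue) are spread over the whole range of levels, and most of the genes with the highest levels were not called.

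The gene with the smallest p among those that rose was TRINITY_DN31753_c0_g2, at 2.30, 2.40 and 2.23 CPM in control plants 1, 2 and 3 and at 76.7, 35.5 and 46.9 CPM in water deficit plants 1, 2 and 3. The control plants were nearly alike and the lowest water deficit plant was far above them. Its log2 fold change was 4.52 ± 0.35 (SE, n = 3 per group, quasi-likelihood adjusted p = 0.0117). The same gene stood at 1.20, 1.76 and 1.52 TPM in the controls and at 54.1, 18.0 and 27.1 TPM under water deficit.

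TRINITY_DN30341_c2_g1 also rose, from 5.54, 5.49 and 4.68 CPM in the controls to 49.5, 42.5 and 32.9 CPM under water deficit. Every water deficit plant was several times above every control, with a log2 fold change of 2.99 ± 0.24 (SE, n = 3 per group, quasi-likelihood adjusted p = 0.0117). The other tested gene of its assembly component (the contigs that the assembler joined in 1 graph) had a log2 fold change of 2.71 and was not called.

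The gene with the smallest p among those that fell was TRINITY_DN29026_c1_g4, at 47.9, 39.5 and 34.3 CPM in control plants 1, 2 and 3 and at 2.01, 3.40 and 2.77 CPM under water deficit. Its groups were far apart, with a log2 fold change of −3.90 ± 0.28 (SE, n = 3 per group, quasi-likelihood adjusted p = 0.0117). In its component, 3 other genes were tested, with log2 fold changes from −3.58 to −0.34, and 1 of these was called. TRINITY_DN33507_c2_g1, the only assembled gene of its component, fell from 31.2, 26.4 and 27.1 CPM to 4.49, 5.14 and 3.74 CPM (log2 fold change −2.66 ± 0.23, SE, n = 3 per group, quasi-likelihood adjusted p = 0.0117).

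The 10 genes that rose with the smallest p, among those with no overlap between the groups and a mean of at least 5 CPM, covered a wide range of starting levels. Their control means ran from 0.182 to 65.2 CPM and their water deficit means from 14.1 to 980 CPM, with log2 fold changes between 1.83 and 6.21. Water deficit plant 1 was the highest of its group in 7 of these 10 genes, and plant 2 was the lowest in 7. The 10 that fell had control means of 22.8 to 291 CPM and water deficit means of 1.83 to 29.2 CPM, with log2 fold changes between −4.49 and −2.58. Among the water deficit plants, plants 1, 2 and 3 were the highest in 1, 6 and 3 of these 10 genes and the lowest in 2, 3 and 5. All 20 had an adjusted p of 0.0117 (quasi-likelihood test).

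**Figure D2:**
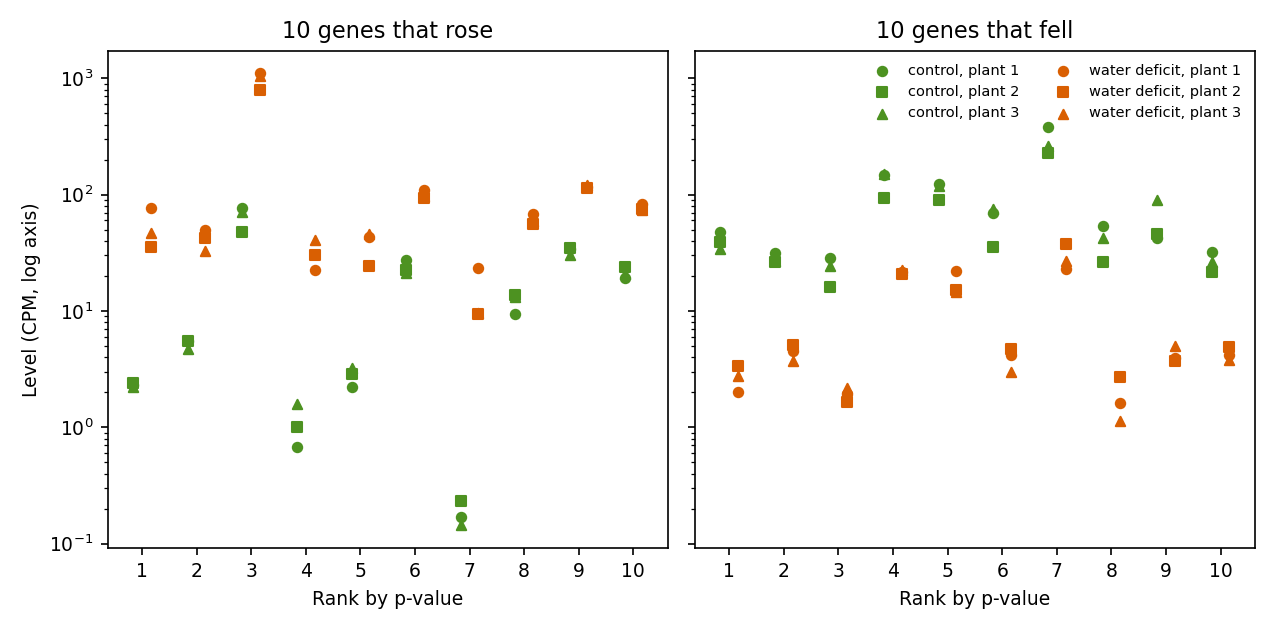
Levels in CPM on a log axis of the 10 genes that rose (left) and the 10 that fell (right) with the smallest p, 1 point per plant, ordered by p. The 3 water deficit plants (orange) and the 3 controls (green) do not overlap in any of the 20 genes, which the rule for these genes required, and the control means of the genes that rose run from 0.182 to 65.2 CPM.

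The median level of the up-regulated DEG was 11.5 CPM in the controls and 38.6 CPM under water deficit, and 60 of the 448 genes were under 1 CPM in the controls. Under water deficit 92 of them were over 100 CPM, compared with 14 in the controls. The median change was 3.59-fold (log2 1.84), with quartiles of 2.58-fold and 6.27-fold. A change of at least 2, 3, 4 and 5 on the log2 scale was found in 197, 79, 43 and 22 genes, and the largest log2 fold change was 7.86. Together the 448 genes took 0.856%, 1.13% and 0.997% of the counts in control plants 1, 2 and 3 and 4.49%, 3.00% and 3.56% in water deficit plants 1, 2 and 3. Water deficit plant 1 had the largest share and plant 2 the smallest.

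The median level of the down-regulated DEG was 18.6 CPM in the controls and 3.45 CPM under water deficit, and the median change was 5.25-fold (log2 size 2.39), with quartiles of 3.53-fold and 8.11-fold. The number over 100 CPM was 71 in the controls and 3 under water deficit, where 143 of the 666 were under 1 CPM. A fall of at least 2, 3, 4 and 5 on the log2 scale was found in 452, 168, 50 and 19 genes. These genes held 3.02%, 2.36% and 2.82% of the counts in control plants 1, 2 and 3 and 0.607%, 0.680% and 0.622% in water deficit plants 1, 2 and 3. The water deficit plants were thus close to each other in this share, and the controls less so. The sizes of both lists were read from the genes that the test had selected, so they describe these genes and were not tested.

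The share of genes called depended on the count. It was 0.742% at a mean of up to 1 CPM over the 6 libraries and 1.85% at 1 to 3 CPM. From 3 to 300 CPM it lay between 4.44% and 5.34%, and over 300 CPM it was 3.71%, beside 3.84% of all genes tested. The median standard error of the log2 fold change was 0.705 at up to 1 CPM, 0.406 at 3 to 10 CPM and 0.229 at 30 to 100 CPM. A change of a given size was thus less detectable in genes with few counts. At higher counts the median standard error was larger again, at 0.251 for 100 to 300 CPM and 0.353 over 300 CPM. CPM is not corrected for gene length, and these classes are classes of count. They are not given by direction, because a mean over both groups is itself moved by the change.

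**Figure D3:**
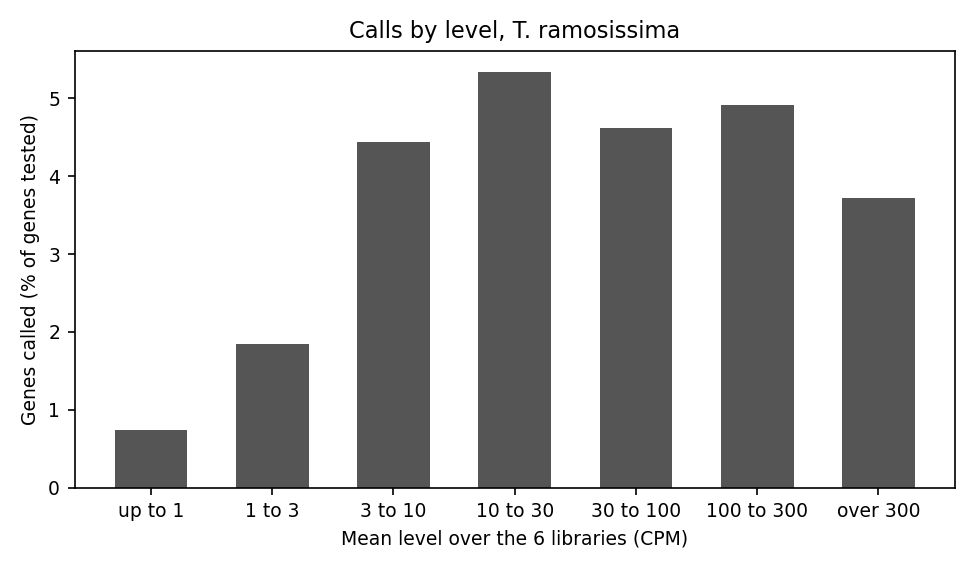
Share of genes called in either direction at an FDR of 0.05 and a 2-fold change (vertical axis, percent of the genes tested in the class), in 7 classes of mean CPM over the 6 libraries. The share is 0.742% at up to 1 CPM and between 3.71% and 5.34% in the 5 classes above 3 CPM.

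A filter that counts libraries lets some genes in through 1 group alone. Only water deficit plants passed 1 CPM in 607 genes, of which 51 were up-regulated DEG, and only control plants passed in 866 genes, of which 112 were down-regulated DEG. Over all genes tested, 1.54% were up-regulated and 2.29% down-regulated DEG. Genes that enter through 1 group alone are picked for a difference in that direction, so these counts are not a result about them. The other 397 up-regulated and 554 down-regulated DEG passed 1 CPM in at least 1 plant of both groups.

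None of the 100 genes with the highest mean TPM (RSEM's level per length, scaled within a library) in the controls was a DEG by the quasi-likelihood test, beside 3.84% of all genes tested. Their smallest adjusted p was 0.0507, and 18 of the 100 had an unadjusted p under 0.05, beside 21.6% of all genes tested. In every water deficit plant 16 of the 100 were lower and 6 were higher, beside 14.7% and 13.6% of all genes tested. Their median log2 fold change was −0.34, and 75 had a lower value under water deficit. The genes were picked by their control level, which by itself favours genes that are lower in the other group. Of the same 100, 72 were also among the 100 most abundant under water deficit.

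Of the 100 genes with the highest mean TPM under water deficit, 8 were up-regulated DEG and 0 were down-regulated, beside 1.54% and 2.29% of all genes tested. This choice favours genes that rose. The gene of these with the largest change stood at 6.33, 14.6 and 3.91 TPM in control plants 1, 2 and 3 and at 810, 713 and 1494 TPM in water deficit plants 1, 2 and 3, a log2 fold change of 7.47 ± 0.73 (SE, n = 3 per group, quasi-likelihood adjusted p = 0.0117). It was a minor transcript in every control and an abundant one in every water deficit plant. The next by size had 10.3, 12.2 and 16.0 TPM in the controls and 2543, 143 and 936.5 TPM under water deficit (log2 fold change 6.84 ± 1.06). Here the groups were apart, but the water deficit plants differed widely, with plant 1 the highest and plant 2 the lowest. A gene at 111, 83.3 and 68.3 TPM in the controls reached 864, 715 and 677 TPM (log2 fold change 3.03 ± 0.33), with little spread between the plants of a group. These 3 genes were chosen after their values were seen.

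The share of counts taken by the few most abundant genes was also compared. The 100 most abundant genes of each library took 22.6%, 17.1% and 17.4% of the counts in control plants 1, 2 and 3 and 15.1%, 19.8% and 18.0% in water deficit plants 1, 2 and 3. The groups overlapped, and the difference of −1.37 percentage points was smaller than the spread between plants (exact permutation test over the 20 assignments of 3 against 3, two-sided p = 0.7, where the smallest possible p is 0.1). The single most abundant gene of a library took 2.85%, 2.79% and 2.64% of the counts in the controls and 1.32%, 1.46% and 2.37% under water deficit. With all libraries thinned to the smallest total, 61891, 71874 and 68019 genes had a count in the controls and 67244, 59323 and 66632 under water deficit (two-sided exact permutation p = 0.5).

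The 3 water deficit plants did not stand equally far from the controls. Euclidean distances on log2(CPM + 1) over the genes tested averaged 174 from water deficit plant 1 to the 3 controls, 138 from plant 2 and 147 from plant 3. Within the controls the 3 distances were 111, 117 and 87.3 (105 ± 15.8, SD), and within water deficit they were 145, 135 and 109 (130 ± 18.7, SD), the smallest of these being the pair without plant 1. Distances between a control and a water deficit plant ran from 128 to 192. Mean distance within water deficit exceeded that within the controls by 24.8 (exact permutation test, two-sided p = 0.5). Mixed assignments in this test count distances between a control and a water deficit plant as distances within a group. The test therefore cannot decide whether the spread differed between the groups. The median SD between plants of log2 levels was 0.343 under water deficit and 0.280 in the controls, and it was larger under water deficit in 60.4% of the genes.

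The 2-fold and 4-fold counts of single plants in this paragraph were taken on CPM + 1, which makes a change at a low level smaller than on CPM. On this scale water deficit plant 1 had 1738 genes at least 2-fold above the highest control and 2248 at least 2-fold below the lowest. The same counts were 780 and 1004 in plant 2 and 867 and 1235 in plant 3. In plant 1, 92 genes were at least 4-fold above all 5 other libraries and 81 at least 4-fold below them, whereas no other library had more than 22 above or 14 below. Among the 448 up-regulated DEG, plant 1 was the highest of the 3 in 268, plant 2 in 86 and plant 3 in 94. Among the 666 down-regulated DEG, plants 1, 2 and 3 were the lowest in 278, 133 and 255. The median change on log2(CPM + 1) from the control mean in plants 1, 2 and 3 was 1.75, 1.54 and 1.52 for the up-regulated and −1.88, −1.75 and −1.90 for the down-regulated DEG. The test that picked these genes favours a small spread within a group, so the likeness of these medians is not a result about the plants. Without plant 1 the test called 1054 DEG, of which 777 were among the 1114. Among controls, plant 1 had the highest level in 418 of the 666 down-regulated DEG, and plant 2 in 44. Over all genes tested, control plant 1 lay at least 2-fold above the other controls in 654 genes and below them in 762. These counts were 310 and 177 for control plant 2 and 347 and 381 for control plant 3. How often each plant was the highest or lowest of its group over all genes tested is not given here.

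**Figure D4:**
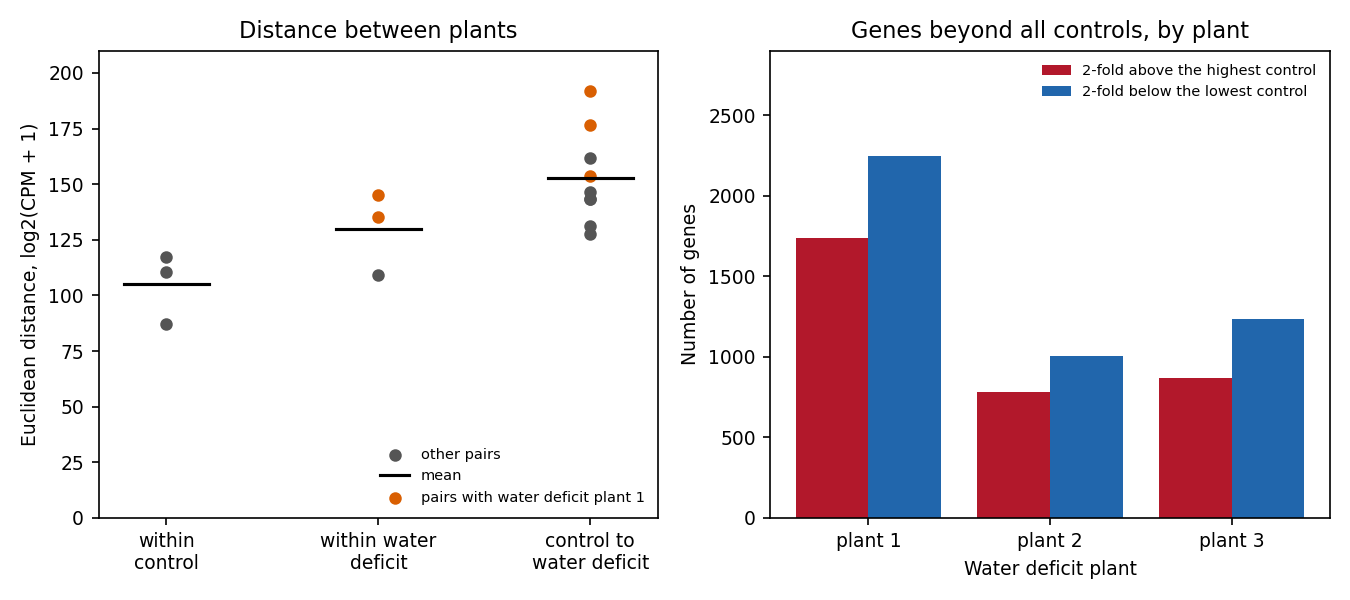
Left, Euclidean distance on log2(CPM + 1) for each pair of plants, within control, within water deficit and between the groups, with the mean as a line and the pairs that include water deficit plant 1 in orange. Right, number of genes in each water deficit plant at least 2-fold, on CPM + 1, above the highest control (red) or below the lowest (blue). Plant 1 has 1738 and 2248 genes and the other plants have 780 to 1235.

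Few genes went from a clear count to 0. With a count of at least 10 in every plant of a group and 0 in every plant of the other, 1 gene was seen under water deficit only and 2 genes in the controls only. The first had counts of 60, 10 and 17 in water deficit plants 1, 2 and 3 and was at least 31.8-fold higher than a floor of 3 counts over the control group allows (quasi-likelihood adjusted p = 0.0453). Its counts in plants 2 and 3 were much lower than in plant 1. Of the other pair, one gene had 16, 23 and 23 counts in the controls and was at least 18.9-fold lower under water deficit (adjusted p = 0.0251). The other had 60, 76 and 56 counts in the controls and was at least 58.4-fold lower (adjusted p = 0.0146).

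The last of these genes belonged to a component of 5 assembled genes. Its 4 relatives had counts above 0 in every *T. ramosissima* plant, one of them with 136, 164 and 123 in the controls and 96, 179 and 142 under water deficit. The sum over the component was 1052, 756 and 898 in the controls and 442, 747 and 470 under water deficit, so the component as a whole did not go to 0. How alike its contigs are, and whether reads moved between them, was not tested.

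Assembly components were used to ask whether genes assembled together moved together. The tested genes fell into 21458 components, of which 15721 held 1 tested gene. DEG made up 4.06% of the genes that were alone in their component and 3.58% of those with tested relatives. Of the 69 components with 2 or more DEG, 64 had them all in 1 direction and 5 had them in both. In components with a DEG, the other tested genes were summarised for each DEG by the median of their log2 fold changes. This median had the sign of the DEG in 360 of 476 cases (75.6%). Its own median over the cases was 0.84 on the log2 scale in the direction of the DEG, against a median size of 2.10 for the DEG themselves. In 220 cases it reached at least 2-fold in that direction, and in 26 cases at least 2-fold in the other. The same shares over all genes with tested relatives are not given here, so these counts stand without them. A relative could itself be a DEG, since 55 up-regulated and 89 down-regulated DEG lay in the 69 components with 2 or more. Such genes count for each other among the 476 cases.

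No component held more than 4 DEG, and 5 components held 3 or more. In one of these, 3 genes all rose to a like degree, from 20.3, 22.3 and 24.3 to 59.7, 71.5 and 59.9 CPM, from 29.5, 37.2 and 40.1 to 93.3, 113 and 91.1 CPM, and from 30.9, 23.7 and 24.3 to 95.2, 64.1 and 85.2 CPM. Their log2 fold changes of 1.51, 1.48 and 1.63 differed by less than their standard errors of 0.18 to 0.22. In another, 3 genes fell together, the most abundant of them from 644, 283 and 477.6 to 43.3, 112 and 64.8 CPM (log2 fold change −2.68 ± 0.45, SE, n = 3 per group). Control plant 1 was the highest and water deficit plant 1 the lowest in each of these 3 genes. The components shown here were chosen after their values were seen, and genes of a component may share reads, so they are not independent.

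In the 5 components with DEG in both directions, one relative fell as another rose. One pair stood at 21.1, 13.3 and 16.5 CPM in the controls and 4.10, 7.76 and 3.42 CPM under water deficit for the gene that fell (log2 fold change −1.74 ± 0.38) and at 6.82, 9.66 and 11.3 against 66.1, 36.6 and 45.6 CPM for the gene that rose (2.41 ± 0.30). A further pair had 31.7, 15.0 and 26.3 against 4.02, 3.69 and 6.02 CPM for the gene that fell and 4.35, 3.01 and 5.69 against 28.0, 15.8 and 22.6 CPM for the gene that rose. In both pairs the gene that rose had fewer counts than the gene that fell in every control and more in every water deficit plant, without a correction for length. These pairs too were chosen after their values were seen.

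The 2 deposited tables together give a measure apart from the level of a gene. The ratio of expected count to TPM is proportional to the effective length of the isoforms that the reads of a gene were assigned to, and a shift in this ratio is a shift toward longer or shorter contigs. It could be measured in 15142 genes with at least 50 counts and 1 TPM in every library (52.2% of the genes tested). At an FDR of 0.05, 0 genes shifted between control and water deficit (limma, 0.0%, smallest adjusted p = 0.112), and 850 genes (5.61%) had an unadjusted p under 0.05. The median size of the shift was 0.03 on the log2 scale. Among the up-regulated DEG, 30 of 298 measured had an unadjusted p under 0.05, and among the down-regulated DEG 7 of 244. Leaving out control plant 1, control plant 2 or water deficit plant 1 gave 1 gene each.

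The response of the same genes in *T. chinensis* was set beside that in *T. ramosissima*. That species wilted at day 10 and has 2 control and 3 water deficit libraries, so species and day of harvest cannot be told apart. The 2 comparisons use no library in common, but the same assembly. Of the 448 up-regulated DEG of *T. ramosissima*, 434 were tested in *T. chinensis*, where 405 (93.3%) were also higher, with a median log2 fold change of 1.75 against 1.83 in *T. ramosissima*. At the same threshold, 211 of them were up-regulated in *T. chinensis*, and 3 were down-regulated. The 211 were 48.6% of the 434 tested, beside 6.1% of all genes tested in *T. chinensis*. They were 47.1% of the *T. ramosissima* list and 12.3% of the 1721 genes up-regulated in *T. chinensis*. Of the 666 down-regulated DEG, 647 were tested in *T. chinensis*, where 623 (96.3%) were also lower, with a median of −2.07 against −2.36. In *T. chinensis* 295 of these were down-regulated DEG and 0 were up-regulated. The 295 were 45.6% of the 647 tested, beside 9.48% of all genes tested in *T. chinensis*. They were 44.3% of the *T. ramosissima* list and 11.03% of the 2674 genes down-regulated in *T. chinensis*. Both lists were picked by their *T. ramosissima* values, which favours a larger median change in that species. The share with the same sign over all genes tested in both species is not given here, so 93.3% and 96.3% stand without it.

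The 4 genes named by identifier had the same sign in *T. chinensis*, where 2 of them were called. TRINITY_DN31753_c0_g2 stood at 5.26 and 10.8 CPM in the *T. chinensis* controls and at 713, 30.3 and 725 CPM in its water deficit plants 1, 2 and 3 (log2 fold change 5.92 ± 1.52, SE, quasi-likelihood adjusted p = 0.0473). Its water deficit plants spanned a far wider range than in *T. ramosissima*. TRINITY_DN29026_c1_g4 stood at 39.5 and 47.2 CPM in the *T. chinensis* controls and at 7.02, 4.63 and 8.70 CPM under water deficit (log2 fold change −2.68 ± 0.29, adjusted p = 0.00720). The other two were not called there, TRINITY_DN30341_c2_g1 with 1.32 and 7.74 CPM in the controls and 18.7, 4.41 and 15.4 CPM under water deficit (log2 fold change 1.48 ± 0.89, adjusted p = 0.281) and TRINITY_DN33507_c2_g1 with 36.4 and 23.5 CPM against 1.70, 6.87 and 13.04 CPM (−2.05 ± 0.72, adjusted p = 0.0982). In the first of these, water deficit plant 2 lay between the controls. Of the 10 genes that rose and the 10 that fell with the smallest p, 5 each were called in *T. chinensis*, and in none of the 20 did the quasi-likelihood test call the difference between species, whose smallest adjusted p among them was 0.101.

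**Figure D5:**
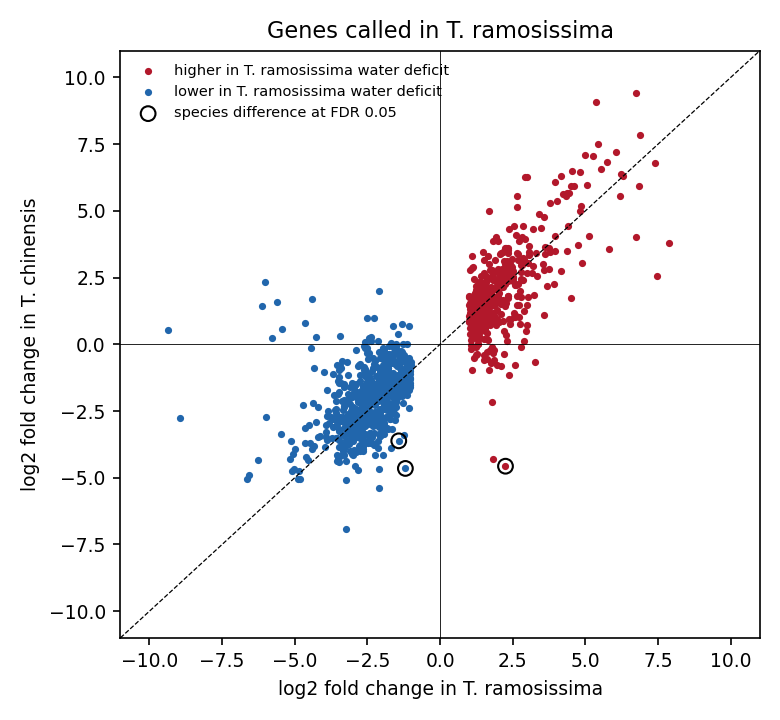
Log2 fold change, water deficit over control, in *T. ramosissima* (horizontal) and *T. chinensis* (vertical) for the 434 up-regulated (red) and 647 down-regulated (blue) DEG of *T. ramosissima* that were tested in both, with the line of equal change dashed. Most points share their sign, 405 of the red and 623 of the blue, and circles mark the 3 DEG whose response differed between species at an FDR of 0.05.

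The difference between the responses was tested directly, with a species by treatment interaction term in 1 fit of the 11 libraries. It was called in 20 of 31320 genes at an FDR of 0.05 and a 2-fold difference (0.0639%, edgeR quasi-likelihood test), and 3630 genes had an unadjusted p under 0.05. In 17 of the 20 the change was lower in *T. chinensis*, with log2 fold changes of −7.99 to −1.12 there (median −4.39) against −1.42 to 2.25 in *T. ramosissima* (median 0.56). In the other 3 the change was higher in *T. chinensis*, at 2.94 to 9.47, against −0.59 to 0.13. The gene at 9.47 had counts of 0 and 0 in the *T. chinensis* controls and 53, 128 and 74 under water deficit, so the size of that change could not be measured. It belongs to the component of 5 assembled genes described above. Of the 20 genes, 13 changed by less than 2-fold in *T. ramosissima* and 3 were DEG there, 1 up-regulated and 2 down-regulated. The up-regulated one had means of 4.22 CPM in control and 20.1 CPM under water deficit in *T. ramosissima* (log2 fold change 2.25), against a log2 fold change of −4.57 in *T. chinensis*. DESeq2 called 865 genes and limma-voom 8. Leaving out any 1 of the 11 libraries gave 2 to 849 genes, the highest without water deficit plant 1 of *T. ramosissima* and the lowest without its control plant 1 or 3, so this number rests on single libraries.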

How the data were processed

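Leaf RNA of *T. ramosissima* and *T. chinensis* was sequenced as read pairs from 11 plants, and groups were taken from the sample labels. After trimming (Prinseq), the authors built 1 Trinity assembly from both species, mapped the reads to it with Bowtie and ran RSEM, of unstated version, to estimate abundance. Its expected counts were deposited without normalization, and fragments matching more than 1 contig are already divided among them. Its TPM values were deposited by the authors as well.

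Expected counts were rounded and analysed in R 4.3.3 with edgeR 4.0.16 (TMM, quasi-likelihood test, FDR at most 0.05 or 0.005, absolute log2 fold change at least 1), keeping genes that exceeded 1 CPM in 2 or more libraries and fitting the 6 *T. ramosissima* libraries alone. CPM values printed per plant use TMM factors (0.843 to 1.11). Fold changes and their F statistics gave the standard errors. The study used edgeR at an FDR of 0.005 without naming the test. Ratios of count to TPM were centred per library, corrected by lowess and tested with limma 3.58.1. The interaction used all 11 libraries. Alternatives were the exact test, DESeq2 1.42.0, limma-voom, limma-trend, other scalings, filters and thresholds, counts summed per component, thinning, the replicate number as a block, and each library left out. The statistical steps were tested on simulated data.

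Named genes were the 10 in each direction with the smallest p among those with a 2-fold change, no overlap between groups and a mean of at least 5 CPM. Identifiers are given for 2 in each direction. The genes, lists and the threshold of 0.05 were chosen with earlier results of these data known. Gene ontology, homologs and transcription factors were not analysed here.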

Additional observations from a re-analysis of the deposited data

Results flagged for a closer look

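The response to water deficit differed between *T. chinensis* and *T. ramosissima* in 20 genes by the interaction test at an FDR of 0.05 (edgeR quasi-likelihood test), a difference between groups under the same contrast. In *T. ramosissima* 13 of them changed by less than 2-fold, and in 17 of them the *T. chinensis* change was the lower one. Species, seed source and day of harvest cannot be told apart, and without water deficit plant 1 of *T. ramosissima* the number was 849, which still held all 20.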

How the results depend on the processing

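At an FDR of 0.005, where the quasi-likelihood test called 0 DEG, the exact test gave 1231, DESeq2 1530, no filter on low counts 2451 and 1 fit of all 4 groups 1, and every other alternative run gave 0, each library left out included. At 0.05, in place of 1114, these gave 2459 (exact test), 2704 (DESeq2) and 3976 (no filter), of which 1106, 1113 and 1104 were among the 1114, and leaving out 1 library gave 0 to 1054. All other settings except the block stayed within 1.5 times, from 888 with limma-voom to 1436 with 1 fit of all 4 groups. Replicate numbers did not pair the plants (correlations of deviations −0.18, −0.24 and 0.10 for numbers 1, 2 and 3), and a replicate block gave 0 DEG by the quasi-likelihood test, with a smallest adjusted p of 0.0601 and 4809 genes with an unadjusted p under 0.05. The 4 genes named by identifier kept their direction under all 20 alternatives and their call under 18, losing it with the replicate block and without control plant 3. Apparent length shifts numbered 0 to 1 with 1 library left out and 0 under the other alternatives, the replicate block included. The species interaction gave 865 genes with DESeq2 and 8 with limma-voom in place of 20, and 2 to 849 with 1 library left out. Genes at 0 in 1 group numbered 7 with a minimum of 5 counts and 1 with a minimum of 20, in place of 3. The cause of these differences was not tested. Distances between plants and the share of the 100 most abundant genes moved by less than the spread between plants. With 3 plants a group, no comparison of single values could give an exact p under 0.1.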
